A study of Homo sapiens with 24 samples.

Results

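The comparison described here is that of 12 h with 8 h of mock treatment in A549 cells, a human line from a lung adenocarcinoma, in which BOP1 had been knocked down. It contrasts 6 of the 24 libraries of the series, chosen by their labels alone. These are the 3 libraries of BOP1 siRNA, mock, 12 h and the 3 libraries of BOP1 siRNA, mock, 8 h. All of these cells had been transfected for 48 h with a pool of siRNAs against BOP1 (siBOP1) and then mock treated for the time given, so the controls of this comparison carry the knockdown too. The values of the other groups are given only beside it. They are the same times with an siRNA against firefly luciferase (siFLuc, an insect gene, as the control), and the same times with interferon beta (IFN) at 1000 U/mL. All 24 libraries entered the main fit, so its p-values draw on the spread in all 8 groups. Polyadenylated RNA was sequenced and the authors deposited TPM values, in which each transcript's length-scaled abundance is a share of a fixed total. Such shares keep no read numbers, so sequencing depth cannot be given and the number of libraries limits the precision. Nothing in the labels says that the 3 libraries of a group came from separate cultures, and p-values then measure only the spread between these libraries, which may be technical. All values come from 1 tumour cell line. In bulk samples, fewer cells that express a gene and less of its RNA per cell cannot be told apart.

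The libraries are called by the number in their column name, which is 1, 2 or 4. The libraries numbered 1 and 2 match labelled replicates, and those numbered 4 could be matched to their group only. At 12 h the library numbered 4 stood apart: its Pearson r of log2(TPM + 1) with the others was 0.975, against 0.988 between numbers 1 and 2, while at 8 h the 3 values lay between 0.979 and 0.982. It also had the lowest share of mitochondrial transcripts, 12.1% of TPM, against 14.2% to 15.9% in the other 5. The main results are therefore given also for the libraries numbered 1 and 2 alone. The 6 libraries held 14168 to 14509 genes at 1 TPM or more. Of 12 markers of A549 cells and lung epithelium, 9 reached 1 TPM in all 6 libraries and SFTPB was listed at 0, with summed levels of 12676 to 13040.2 TPM at 8 h and 12702 to 13017 TPM at 12 h. Of the markers of fibroblasts 2 of 9 (COL1A1 and THY1), of leukocytes 2 of 10 (CD14 and CD68) and of endothelium 0 of 7 did so. COL1A1 was at 7.19 to 19.3 TPM in the 6 libraries, and PTPRC, CD3E, COL1A2 and CLDN5 were listed at 0.

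The heat shock response is the set of chaperone genes that a cell switches on when proteins misfold. Its main transcription factor is HSF1, which binds inverted repeats of a short GAA element in promoters of the target genes. The products work together: HSP70 proteins bind unfolded stretches, J-domain proteins (HSP40) bring clients to them, HSP110 proteins exchange their nucleotide, and HSP90 with its cochaperones finishes the folding of kinases and receptors. BOP1, the target of the siRNA, works with PES1 and WDR12 in the PeBoW complex, which matures the large ribosomal subunit.

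BOP1 itself was at 18.01, 18.4 and 19.5 TPM in the 8 h libraries numbered 1, 2 and 4 and at 15.6, 15.4 and 13.7 TPM in those of 12 h. The ranges do not overlap, and the means were 18.6 ± 0.750 and 14.9 ± 1.05 TPM (SD, n = 3). The two-sided exact permutation test gave p = 0.1, the smallest that 3 against 3 libraries allow, and limma's adjusted p was 0.626 for a log2 change of -0.31 (SE 0.18). For its partners, the values were 81.04, 77.4 and 79.9 TPM at 8 h and 76.5, 71.7 and 60.9 TPM at 12 h for PES1, and 54.2, 46.2 and 52.3 TPM at 8 h and 45.03, 41.7 and 33.3 TPM at 12 h for WDR12. Neither passed the test (limma adjusted p = 0.516 for both). In siFLuc mock cells, BOP1 was at 66.1, 55.9 and 77.3 TPM at 8 h and 51.9, 59.1 and 78.8 TPM at 12 h, all above the siBOP1 values.

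Between 8 h and 12 h the inducible HSP70 genes fell most among genes past the test, and the largest rises at 5 TPM or more were those of YPEL3, SYNE2 and TFDP2, a growth-restraining protein, a protein of the nuclear envelope and a partner of the E2F transcription factors. Of 16062 genes tested with limma on log2(TPM + 1), 37 passed an adjusted p of 0.05, which is 0.23% of them. Below, "called" means past this threshold in the fit of all 24 libraries, and changes are on this log2 scale. The 37 were 22 higher at 12 h (0.137%) and 15 lower (0.0934%), of which 3 and 5 differed by at least 1 on the log2 scale. Before adjustment, 1549 genes had a p under 0.05. All 37 genes had 12 h and 8 h values that did not overlap, as had 19.3% of all genes tested. In the libraries numbered 1 and 2 alone, 198 genes passed (1.23%), 89 higher (0.554%) and 109 lower (0.679%). Of the 37 genes 32 passed in both fits, which is 86.5% of the first list and 16.2% of the second. Their direction could not differ between the fits, since their values do not overlap between the times. Of the 198 genes, 159 (80.3%) had the same sign in the number 4 libraries, against 56.2% of all genes tested.

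The number of genes called depended on single libraries and on the scaling. Without 1 of the 12 h libraries, 7, 15 and 9 genes passed (leaving out number 1, 2 and 4), and without 1 of the 8 h libraries, 11, 6 and 14 passed. The sign of the 37 genes could not change in these 6 fits, since their values do not overlap between the times. Of the 37, 19 passed in none. SRSF2, TRIM16, HNRNPL, HNRNPDL, SYNE2 and YPEL3 passed in all 6. With median-of-ratios rescaling the split was 21 higher and 29 lower, with quantile normalization 20 and 23, and without the trend in the variance 31 and 10. Fitted on these 6 libraries alone, 0 genes were higher and 2 lower, HSPA1B and DNAJB1.

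Of 18 heat shock genes tested, 0 were called higher and 4 lower (against 0.0934% of all genes), namely HSPA1A, HSPA1B, HSPA8 and STIP1. HSPA1A and HSPA1B (chr6:31815464-31817946 and chr6:31827735-31830255 in GENCODE 29 on GRCh38) encode the inducible HSP70 proteins and are near-identical neighbours, and a further tested gene overlaps HSPA1B on the same strand, so the split of reads between them is uncertain and their sum is the safer value. The sum was 1604, 1496 and 1018 TPM at 8 h and 250.3, 285 and 280.2 TPM at 12 h. The lowest 8 h library, number 4, was still more than 3 times the highest 12 h library.

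The promoters of 3 genes that were lower at 12 h in both fits, and that of CHORDC1, lower in the libraries numbered 1 and 2, are shown because they hold the paired elements that HSF1 is known to bind. Each line gives the 250 bases before the gene's start, 5′ to 3′ on the gene's strand, from RefSeq on GRCh38.p14. Capitals mark GAANNTTC or TTCNNGAA, which are each their own reverse complement, and 2 matches that overlap share bases.
HSPA1A (chr6:31815293-31815542, plus strand): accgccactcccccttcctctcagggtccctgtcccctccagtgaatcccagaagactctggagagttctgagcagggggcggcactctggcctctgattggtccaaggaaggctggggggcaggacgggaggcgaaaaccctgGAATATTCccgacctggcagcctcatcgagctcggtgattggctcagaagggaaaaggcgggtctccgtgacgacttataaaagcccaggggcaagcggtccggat
HSPA1B (chr6:31827488-31827737, plus strand): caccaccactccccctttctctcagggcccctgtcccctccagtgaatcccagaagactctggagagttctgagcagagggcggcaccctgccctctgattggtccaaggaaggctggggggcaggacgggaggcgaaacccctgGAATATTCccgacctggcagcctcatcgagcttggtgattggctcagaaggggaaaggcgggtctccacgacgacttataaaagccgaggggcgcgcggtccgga
HSPA8 (chr11:123062137-123062386, minus strand): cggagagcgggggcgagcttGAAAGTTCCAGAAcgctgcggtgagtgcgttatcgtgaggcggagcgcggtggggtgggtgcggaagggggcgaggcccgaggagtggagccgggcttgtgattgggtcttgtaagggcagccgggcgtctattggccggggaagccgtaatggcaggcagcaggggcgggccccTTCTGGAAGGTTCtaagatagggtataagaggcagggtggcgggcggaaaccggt
CHORDC1 (chr11:90223050-90223299, minus strand): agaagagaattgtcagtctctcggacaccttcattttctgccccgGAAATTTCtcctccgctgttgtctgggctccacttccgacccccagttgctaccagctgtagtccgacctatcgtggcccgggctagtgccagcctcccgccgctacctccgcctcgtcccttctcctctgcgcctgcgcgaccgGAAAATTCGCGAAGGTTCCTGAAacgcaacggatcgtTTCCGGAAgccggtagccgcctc
HSPA1A and HSPA1B hold 1 match each, with the same 8 letters, which begin 106 and 105 bases before the RefSeq start. HSPA8 holds 4 matches in 2 overlapping pairs, and CHORDC1 holds 6. Over all 35116 RefSeq windows from 250 bases before to 50 after a start, 13.5% hold a match, and counted by gene 16.2% have a window with one. Of the 18 heat shock genes tested 16 had a window and 11 of these held a match, which is 68.8%. The same count was 1 of 10 for the genes named below as the largest rises and 4 of 10 for the largest falls, the 4 being the heat shock genes HSPA1A, HSPA1B, HSPA8 and STIP1. A match is a description of the sequence and does not show binding.

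HSPA1A was at 1152, 1051 and 666 TPM at 8 h and at 190.2, 219 and 211 TPM at 12 h. It fell by 2.17 on the log2 scale (SE 0.36, limma adjusted p = 0.0103). In the libraries numbered 1 and 2 it fell by 2.43 (limma adjusted p = 6.26e-08). HSPA1B went from 452, 445 and 352 TPM at 8 h to 60.2, 65.98 and 69.7 TPM at 12 h. It fell by 2.65 (SE 0.54, limma adjusted p = 0.0393). By the pairs 1 and 2 alone it fell by 2.81 (limma adjusted p = 6.26e-08). In both genes the 12 h libraries lie close together and the 8 h library numbered 4 is the lowest of its group. Without 1 of the 6 libraries the limma adjusted p of HSPA1A ran from 0.0153 to 0.0847 and that of HSPA1B from 0.0994 to 0.172. HSPA1A lost its call without either of the 8 h libraries numbered 1 and 2 and without either of the 12 h libraries numbered 1 and 4, and HSPA1B lost it whichever of the 6 was left out.

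HSPA8, the constitutive HSP70 of the cytosol, was at 2711, 2787 and 2596 TPM at 8 h and 1825, 1843 and 1959.8 TPM at 12 h. It fell by 0.52 (SE 0.10, limma adjusted p = 0.0333). STIP1, which links HSP70 to HSP90, was at 246, 262 and 243 TPM at 8 h and 169, 158 and 183 TPM at 12 h, a fall of 0.56 (SE 0.11, limma adjusted p = 0.0282). Both were also lower in numbers 1 and 2 alone, by 0.58 and 0.63. With any 1 of the 6 libraries left out, their limma adjusted p lay between 0.0631 and 0.155, with changes of -0.61 to -0.50.

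The J-domain proteins DNAJA1 and DNAJB1 and the HSP110 protein HSPH1 passed in the libraries numbered 1 and 2 and not in the fit of all. DNAJA1 was at 441, 472 and 418 TPM at 8 h and 228, 222 and 262 TPM at 12 h (log2 change -0.90, limma adjusted p = 0.0663). Over numbers 1 and 2 its change was -1.02 (limma adjusted p = 3.23e-06). DNAJB1, the J-domain partner of inducible HSP70, was at 181, 169 and 175 TPM and 94.9, 97.95 and 94.2 TPM, and HSPH1, a nucleotide exchange factor, at 155, 153 and 148 TPM and 62.1, 65.02 and 93.3 TPM, in the same order of times. For these genes the 8 h and 12 h values do not overlap, and the standard errors, which come from the spread in all 8 groups, were 0.39 and 0.37. Among those groups, the siFLuc mock 12 h library numbered 4 held 2721 TPM of HSPA1A and HSPA1B together, against 465 and 476 TPM in the others of its group. Their limma adjusted p was 0.493 and 0.308 over all libraries and 7.20e-05 and 2.18e-06 in numbers 1 and 2.

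**Figure D1:**
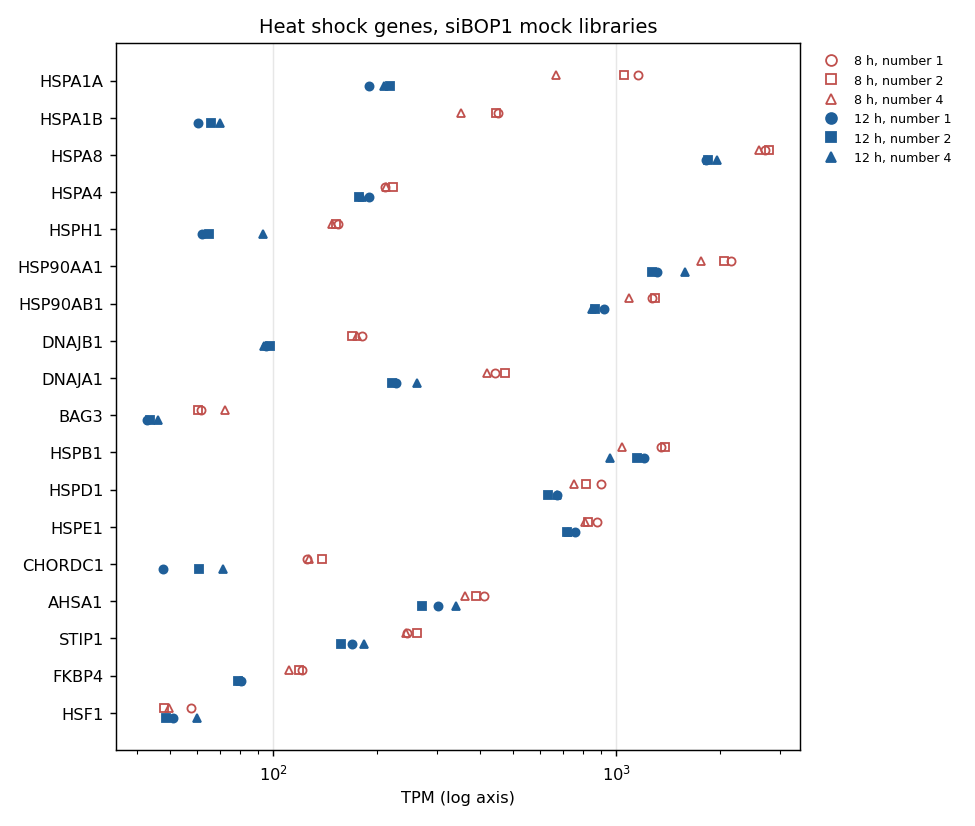
TPM of the 18 heat shock genes tested (log axis) in each siBOP1 mock library, with open red symbols for 8 h, filled blue symbols for 12 h and the symbol's shape for the library number. For 16 of the genes all 12 h points lie to the left of all 8 h points, against 19.3% of all genes with no overlap in either direction, and the gap is widest for HSPA1A and HSPA1B.

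Of HSP90 and its cochaperones, HSP90AA1 (the inducible form) was at 2159, 2059 and 1758 TPM at 8 h and 1309.5, 1268 and 1582 TPM at 12 h, and HSP90AB1 (the constitutive form) at 1271, 1298 and 1086 TPM and 918, 867 and 850.1 TPM. CHORDC1, an HSP90 cochaperone, was at 126, 139 and 127 TPM and 47.8, 60.8 and 71.4 TPM, a log2 change of -1.13. The change of AHSA1, an activator of the HSP90 ATPase, was -0.35, and that of the immunophilin FKBP4 was -0.54. None of these 5 was called over all libraries (limma adjusted p from 0.0943 to 0.363), and all 5 passed in numbers 1 and 2 (limma adjusted p from 0.000187 to 0.00810). BAG3, a nucleotide exchange factor of HSP70, passed in numbers 1 and 2 too (log2 change -0.48, limma adjusted p = 0.0310).

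Smaller differences were measured for the small heat shock protein HSPB1, the mitochondrial chaperonin subunits HSPD1 and HSPE1 and the HSP110 relative HSPA4. Their log2 changes were -0.18, -0.32, -0.19 and -0.24, and none passed in either fit. HSF1 was at 57.5, 47.98 and 49.8 TPM at 8 h and 50.98, 48.7 and 59.8 TPM at 12 h, and these ranges overlap (log2 change 0.037, limma adjusted p = 0.971). CRYAB, the 19th gene of the list, was too low to be tested.

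Over the list of heat shock genes, 4 of 18 tested were lower and 0 higher, and in numbers 1 and 2 alone 13 were lower and 0 higher, against 0.0934% and 0.679% of all genes lower in these fits. The count of 4 fell to 0 without the 12 h library numbered 1 or 4 or the 8 h library numbered 1 or 2, and to 1 without the 12 h library numbered 2 or the 8 h library numbered 4. The median log2 change was -0.53 (-0.58 in numbers 1 and 2), against 0.030 over all genes tested, and -0.55, -0.59 and -0.41 for the numbers 1, 2 and 4 taken singly. Over 16 other ways of processing the table the median stayed between -0.58 and -0.51. All but HSF1 were below 0, 17 of 18. Summed over the list, the level was 12885, 12708 and 10975 TPM at 8 h and 8199, 7991 and 8438 TPM at 12 h. TPM cannot tell fewer transcripts of these genes per cell from more of all others. The list was chosen with earlier results of these data known.

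Outside the heat shock genes, the falls named by rule included regulators of RNA and of cell death. SRSF2 (chr17:76734115-76737374), a splicing factor of the SR family, was at 335, 321 and 315 TPM at 8 h and 195, 189 and 159.98 TPM at 12 h. It fell by 0.84 (SE 0.093, limma adjusted p = 0.000216), one of the 2 lowest adjusted p-values of the comparison. RBM14, an RNA-binding coactivator, was at 50.5, 41.5 and 53.7 TPM and 24.7, 22.7 and 25.6 TPM, a fall of 0.96 (SE 0.18, limma adjusted p = 0.0249). SRSF2 overlaps MFSD11, and GLRX below overlaps RHOBTB3, on the other strand, RBM14 overlaps the readthrough gene RBM14-RBM4, and TRIM16 overlaps a tested gene on its own strand, so their values are uncertain to that extent. SRSF2 kept its call whichever library was left out, and RBM14 lost it each time (limma adjusted p from 0.0642 to 0.114).

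BCL2A1, an anti-apoptotic relative of BCL2, was at 27.2, 30.1 and 25.5 TPM at 8 h and 13.01, 13.2 and 13.4 TPM at 12 h. The 12 h libraries lie within 1 TPM of each other, and the fall was 1.00 (SE 0.20, limma adjusted p = 0.0329). TRIM16, a tripartite motif protein, was at 207, 205 and 205 TPM and 148, 145 and 129 TPM and fell by 0.55 (limma adjusted p = 0.000744). GLRX, the cytosolic glutaredoxin that reduces glutathionylated proteins, was at 121, 149 and 145 TPM and 97.5, 94.3 and 77.5 TPM (fall of 0.62, limma adjusted p = 0.0451). Of these, BCL2A1 and GLRX lost their call whichever of the 6 libraries was left out (limma adjusted p up to 0.153 and 0.280), and TRIM16 in no case. The remaining falls named were those of TPD52L2 (-0.46), C6orf141 (-0.73) and C11orf86 (-1.05), the last of which did not pass in numbers 1 and 2 (limma adjusted p = 0.0671). With 1 library left out, TPD52L2 and C6orf141 lost their call each time and C11orf86 in 5 of 6 fits (limma adjusted p up to 0.186). The lower calls also held 3 transcripts under the 5 TPM asked of named genes: SLC5A3, the myo-inositol transporter (-0.90), F2RL2, a protease-activated receptor (-0.83), and USP34-DT, a divergent transcript (-1.36).

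The largest rise was that of YPEL3 (chr16:30092314-30096915), a small zinc-binding protein that slows growth. It was at 3.65, 4.97 and 3.55 TPM at 8 h and 11.1, 11.6 and 11.5 TPM at 12 h, a rise of 1.31 (SE 0.19, limma adjusted p = 0.00259). SYNE2 (chr14:63852983-64226433), nesprin-2, which ties the nucleus to the cytoskeleton, went from 6.94, 7.27 and 8.40 TPM to 15.7, 14.6 and 21.5 TPM, with the highest value in the 12 h library numbered 4. It rose by 1.08 (SE 0.16, limma adjusted p = 0.00259). Both rose in the libraries numbered 1 and 2 too, by 1.23 and 1.00, and kept their call whichever library was left out.

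Regulators of transcription and signalling were among the other rises. TFDP2, which pairs with E2F factors, was at 9.81, 8.86 and 11.8 TPM at 8 h and 18.8, 18.1 and 21.7 TPM at 12 h (rise of 0.89, limma adjusted p = 0.0123). TEAD2, a DNA-binding partner of YAP, was at 10.97, 14.3 and 12.4 TPM and 24.6, 25.4 and 19.1 TPM (rise of 0.82, limma adjusted p = 0.0359), with the lowest 12 h value in the library numbered 4. Its relative TEAD3 missed the threshold over all libraries (log2 change 0.75, limma adjusted p = 0.0686) and passed in numbers 1 and 2 (limma adjusted p = 0.0460), and was looked up after the values were seen. APBB1 (FE65), an adaptor of the amyloid precursor protein, went from 9.60, 9.08 and 9.43 TPM to 16.95, 18.6 and 16.8 TPM. RPS6KA1, the kinase RSK1 downstream of ERK, went from 8.65, 7.56 and 10.2 TPM to 13.3, 13.7 and 13.6 TPM.

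**Figure D2:**
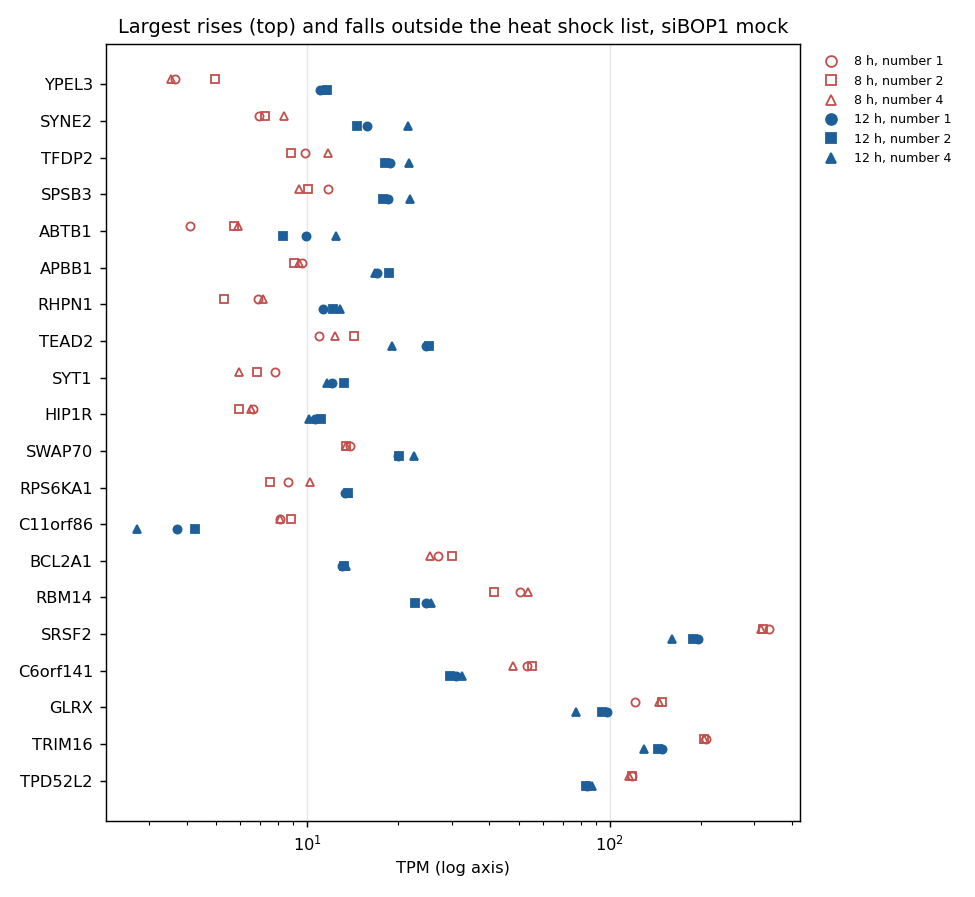
TPM (log axis) in each siBOP1 mock library of the 12 largest rises (upper rows) and of the largest falls outside the heat shock genes (lower rows), with open red symbols for 8 h and filled blue symbols for 12 h. In each row the 8 h and 12 h points do not overlap, which is part of the rule by which these genes were chosen.

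The trafficking and cytoskeletal genes named were SYT1, a calcium sensor of vesicle fusion (rise of 0.76), HIP1R, which links clathrin coats to actin (0.65), RHPN1 (0.82), and SWAP70, an actin-binding signalling protein (0.59). ABTB1 and SPSB3, which carry a BTB and a SOCS box domain, rose by 0.84 and 0.84. The limma adjusted p of these 6 ran from 0.0103 to 0.0359. All 12 named rises passed in numbers 1 and 2 as well, as the rule demands. Of the 12, TEAD2, APBB1 and SWAP70 lost their call whichever of the 6 libraries was left out. TFDP2, SPSB3, ABTB1, RHPN1, SYT1, HIP1R and RPS6KA1 lost it for 2 to 5 of the 6, with the highest limma adjusted p, 0.228, in ABTB1. SPSB3 and TEAD2 overlap other tested genes on the opposite strand, and TFDP2 holds a pseudogene on its own strand.

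Beyond these, HNRNPDL and HNRNPL, RNA-binding proteins of the hnRNP family, were called higher and outside the rule of largest changes. HNRNPDL was at 219, 226 and 223 TPM at 8 h and 302, 313 and 312 TPM at 12 h, a rise of 0.47 (SE 0.054, limma adjusted p = 0.000216). HNRNPL was at 245, 210.1 and 239 TPM and 343, 345 and 314 TPM, a rise of 0.53 (SE 0.070, limma adjusted p = 0.00101). The steps are small, but the libraries of each time lie close together. Of 46 SR proteins, hnRNPs and related factors, a list drawn up after the values were seen, 2 were higher (HNRNPDL and HNRNPL) and 2 lower (SRSF2 and RBM14). The shares of all genes were 0.137% and 0.0934%, and the median log2 change of the list was -0.091. Since the values were known when the list was drawn up, its counts cannot be read as an excess. PLSCR1, an interferon-induced scramblase, was at 53.2, 53.7 and 47.5 TPM and 79.4, 73.8 and 73.3 TPM (rise of 0.54, limma adjusted p = 0.0329), the only one of 49 interferon-stimulated genes called (0.137% of all genes were higher), and lost its call whichever library was left out (limma adjusted p from 0.0899 to 0.142). IFIT1, a marker of that response, was at 1.93, 1.99 and 1.40 TPM and 2.13, 2.29 and 0.973 TPM. Genes called higher also included CARMIL1 and 5 at low levels (FAM171A2, NFATC1, MAGI1, RIBC1 and ABCG1). CARMIL1, which acts on actin capping protein, was at 7.47, 7.04 and 8.27 TPM at 8 h and 11.2, 10.8 and 11.4 TPM at 12 h. RIBC1 and ABCG1 did not pass in numbers 1 and 2 (limma adjusted p = 0.0888 and 0.0939).

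None of the other 26 gene lists examined for pathways had a called member in limma's fit of all libraries. Of their 697 genes tested, 67 had a p under 0.05 before adjustment (9.61%, against 9.64% of all genes). Ribosome biogenesis factors, the pathway of BOP1, had a median log2 change of -0.12, with 92 of 109 below 0, against 43.9% of all genes, and the medians for numbers 1, 2 and 4 were -0.11, -0.14 and -0.14. Cytosolic ribosomal protein genes had a median of 0.053 (0.095, -0.030 and 0.10 for numbers 1, 2 and 4) and tRNA synthetase genes one of -0.13 (-0.13, -0.16 and 0.021), so number 2 and number 4 respectively had the opposite sign. Cholesterol synthesis genes had a median of -0.12, with 23 of 25 below 0 over all libraries and 17 in numbers 1 and 2. The medians for numbers 1, 2 and 4 were -0.11, -0.025 and -0.22, with 18, 13 and 20 of 25 below 0. HMGCS1, an early enzyme of that path, was at 252, 237 and 258 TPM at 8 h and 197, 197 and 173 TPM at 12 h (limma adjusted p = 0.535).

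**Figure D3:**
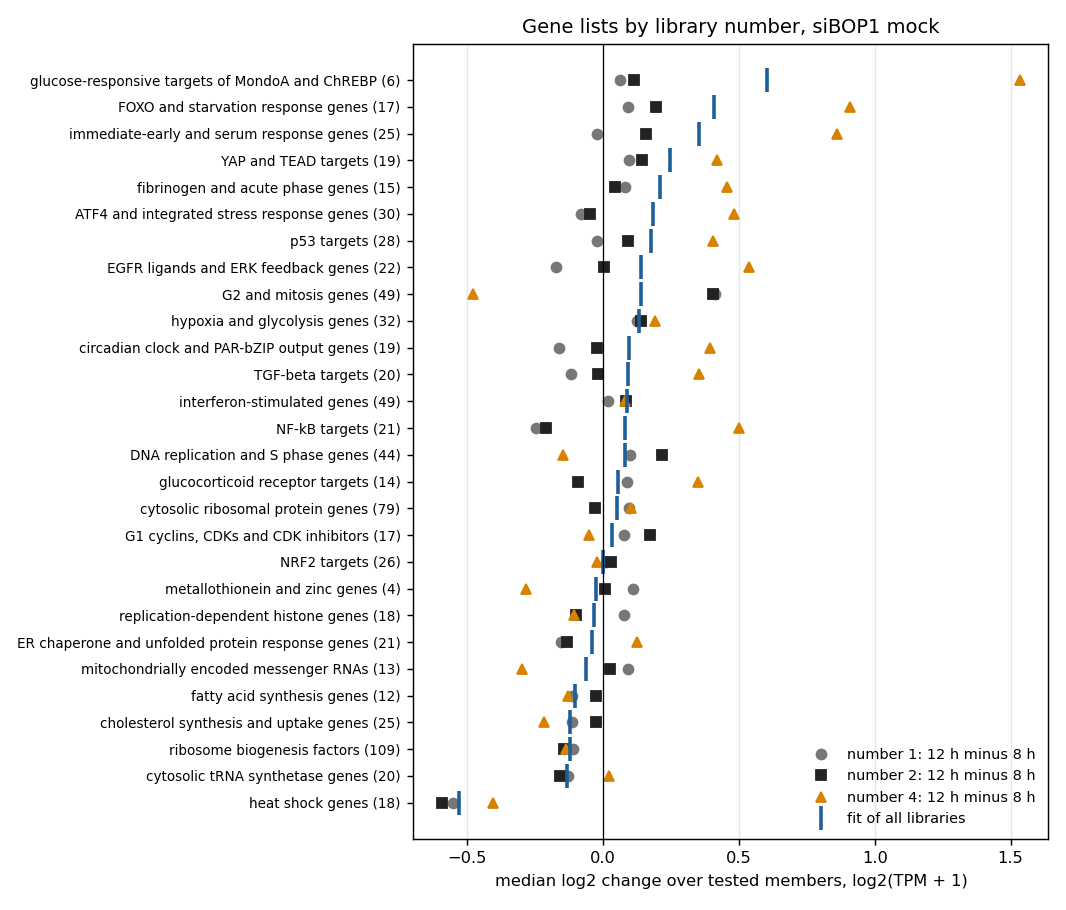
Median log2 change (12 h minus 8 h, log2(TPM + 1)) over the tested members of each gene list, with the number of members tested in brackets. Symbols are the difference between the libraries of 1 number and the bar is the fit of all libraries. Only the heat shock genes lie below -0.4 at all 3 numbers, and several lists have the number 4 symbol far from the other 2.

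For several lists the number 4 libraries gave another value than the other 2 pairs. Targets of MondoA, which respond to glucose, had medians of 0.062, 0.11 and 1.53 for numbers 1, 2 and 4, and FOXO targets had medians of 0.091, 0.20 and 0.91. TXNIP, which is on both lists, was at 3.58, 2.85 and 2.19 TPM at 8 h and 5.29, 3.57 and 17.8 TPM at 12 h, so the 12 h library numbered 4 alone is high. Immediate-early genes, which answer to serum and growth factors, had medians of -0.022, 0.16 and 0.86. EGR1 was at 0.276, 0.326 and 0.182 TPM and 0.404, 0.283 and 11.7 TPM and FOS at 2.99, 4.26 and 3.02 TPM and 4.37, 4.01 and 21 TPM, again with 1 high library. NF-kB targets had medians of -0.24, -0.21 and 0.50 and ATF4 targets of -0.081, -0.046 and 0.48.

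For the lists of G2 and mitosis genes and of DNA replication genes, the median of the number 4 pair had the opposite sign. The medians of G2 and mitosis genes were 0.41, 0.40 and -0.48 for numbers 1, 2 and 4, with 49, 48 and 5 of 49 genes above 0. CCNB1, the mitotic cyclin, was at 116, 115 and 153 TPM at 8 h and 159, 152 and 95.4 TPM at 12 h, where the number 4 library is the lowest. With numbers 1 and 2 alone, 2 of the 49 passed, both higher, against 0.554% of all genes: NUSAP1 (log2 change 0.90, limma adjusted p = 0.0199) and ECT2 (0.47, limma adjusted p = 0.0333), and neither was called over all libraries (0.51 and 0.42). The part of these library differences in the called genes was not tested. DNA replication genes had medians of 0.10, 0.22 and -0.15. Unlike the median, PCNA was higher at 12 h for each number, at 356, 354 and 408 TPM and 382, 398 and 474 TPM.

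Other genes fixed by name showed overlapping ranges or no call. The clock genes PER1, PER2, NR1D1 and BHLHE40 overlapped between the times, and DBP was at 3.75, 2.41 and 3.32 TPM at 8 h and 4.07, 4.44 and 4.60 TPM at 12 h (limma adjusted p = 0.651). CDKN1A, the p53 target p21, was at 61.6, 59.5 and 79.9 TPM and 67.2, 66.4 and 91.8 TPM. CCND1, cyclin D1, was at 109, 99.2 and 105 TPM and 84.6, 89.9 and 76.8 TPM (limma adjusted p = 0.444). ASNS, asparagine synthetase, was at 109.7, 118 and 92.5 TPM and 60.1, 54.9 and 82.8 TPM, with a limma adjusted p of 0.451 over all libraries and 0.00580 in numbers 1 and 2.

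The same times were set side by side in siFLuc mock cells and in siBOP1 cells given IFN, 2 comparisons that share no library with the one described. In siFLuc mock cells 21 genes were called (0.131%; 263 or 1.64% in numbers 1 and 2), and in siBOP1 IFN cells 475 (2.96%; 897 or 5.58%). Of the 37 genes, 36 had the same sign in siFLuc mock cells and 35 in siBOP1 IFN cells. In the fit of all libraries, 10 and 28 of them were called there. The comparisons share each gene's standard error in that fit, so these calls are not independent. Over all 16062 genes, 69.0% and 67.8% had the same sign, and Pearson r of the changes was 0.45 and 0.36 across genes, which are not independent replicates. In numbers 1 and 2 alone, 196 and 183 of the 198 genes had the same sign, against 67.5% and 63.1% of all genes tested.

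**Figure D4:**
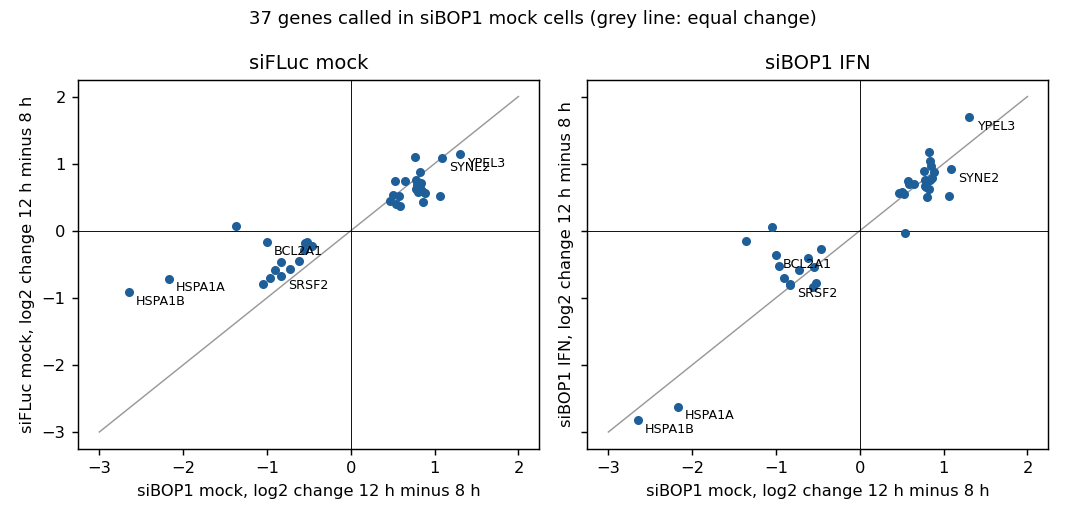
Log2 change from 8 h to 12 h of the 37 called genes in siBOP1 mock cells (horizontal axis) against that in siFLuc mock cells (left) and in siBOP1 cells given IFN (right), where the grey line marks equal changes. Of the 37 points, 36 and 35 have the same sign on both axes, and HSPA1A and HSPA1B lie above the line in the left panel.

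YPEL3 rose by 1.14 in siFLuc mock cells (limma adjusted p = 0.00900) and by 1.69 with IFN (limma adjusted p = 0.000114). SYNE2 rose by 1.08 and 0.92, and SRSF2 fell by 0.68 and 0.80 (limma adjusted p up to 0.00328). BCL2A1 was not called in either, with log2 changes of -0.17 and -0.36. In siFLuc mock cells it was lower at 12 h in numbers 1 and 2 and higher in number 4 (22.6 TPM at 8 h and 32.4 TPM at 12 h). Its change in siBOP1 mock cells minus that in these cells was -0.83 over all libraries and -0.56 in numbers 1 and 2. Against siBOP1 IFN cells these differences were -0.64 and -0.63. None of them passed the interaction test given below, so a fall particular to siBOP1 mock cells was not shown. C11orf86 had log2 changes of -0.80 and 0.049, and PLSCR1 of 0.39 and -0.029.

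For the heat shock genes, the siBOP1 IFN cells gave a median change of -0.69 with 10 of 18 lower (0.511% of all genes were lower). The siFLuc mock cells gave -0.17 with 0 lower over all libraries (0.0125% of all genes were), and -0.41 in numbers 1 and 2. The sum of HSPA1A and HSPA1B was 1775, 1500.0 and 1055 TPM at 8 h and 465, 476 and 2721 TPM at 12 h in siFLuc mock cells, so the 12 h library numbered 4 is the highest of the 6 there. With IFN the siBOP1 sum was 2122, 1917 and 1648 TPM at 8 h and 286, 327 and 263 TPM at 12 h, and these do not overlap. Numbers 1 and 2 were lower at 12 h than at 8 h for both siRNAs and both treatments.

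**Figure D5:**
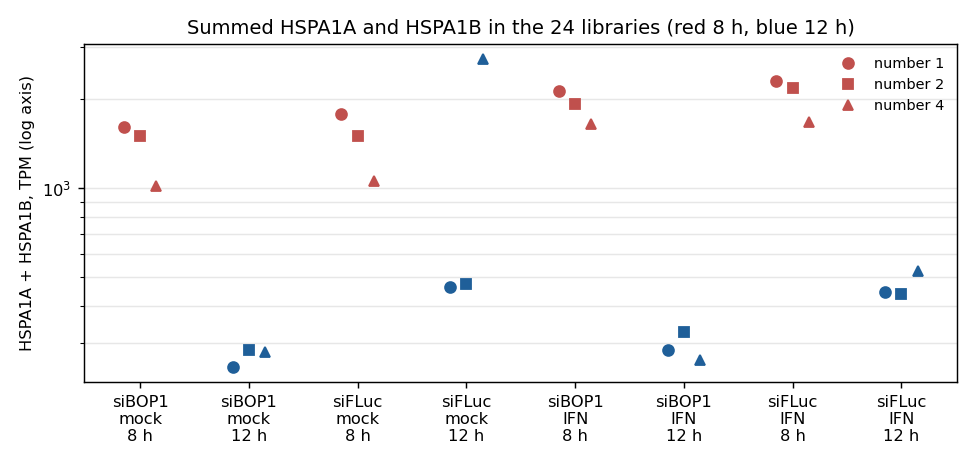
Summed TPM of HSPA1A and HSPA1B (log axis) in the 24 libraries by group, red for 8 h and blue for 12 h, with the symbol's shape for the library number. The 3 siBOP1 mock libraries of 12 h lie below 300 TPM and those of 8 h above 1000 TPM, and 1 library of siFLuc mock cells at 12 h is at 2721 TPM.

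Whether the change from 8 h to 12 h differed between the siRNAs, or between mock and IFN, was tested with interaction terms in the same limma fit. No gene passed for either (0.0%), and 299 and 603 genes had a p under 0.05 before adjustment. The interaction of HSPA1A (siBOP1 minus siFLuc) was -1.46 (95% interval -2.51 to -0.41) and that of HSPA1B -1.73 (95% interval -3.33 to -0.13), both with limma adjusted p = 1. These intervals are not adjusted for the number of genes, and the siFLuc 12 h library numbered 4 is in them. For numbers 1 and 2 alone the values were -0.80 and -0.59 (limma adjusted p = 0.598 and 1). For mock minus IFN they were 0.45 (95% interval -0.60 to 1.51) and 0.18 (95% interval -1.42 to 1.78). YPEL3 gave 0.16 (95% interval -0.39 to 0.72) between siRNAs and -0.38 (95% interval -0.94 to 0.17) between treatments, and SYNE2 gave 0.00092 (95% interval -0.46 to 0.46) and 0.16 (95% interval -0.29 to 0.62). With numbers 1 and 2 alone, 1 gene passed for each term (0.00623%): VTRNA1-2, a vault RNA (log2 interaction 3.29 between siRNAs, limma adjusted p = 0.0366), and TNFRSF10D, a decoy receptor of TRAIL (-1.24 between treatments, limma adjusted p = 0.0243). Both were named after their values were seen, and VTRNA1-2 no longer passed once the library number was added to that fit.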

How the data were processed

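Polyadenylated RNA of A549 cells was sequenced from stranded mRNA libraries, per the labels' protocols. The authors deposited TPM values, 60609 gene rows in 24 columns that each sum to 1000000. The aligner, quantification tool, genome build and annotation are not given in the sources used here, and nothing says how reads common to paralogs or to overlapping genes were shared out. TPM keeps no depth. Of the columns, 16 were matched to labelled replicates 1 and 2, and 8, numbered 4, to their group only. Gene positions are those of GENCODE 29, which held 58502 of the row IDs (41779 with the same version), and promoter sequences are RefSeq's on GRCh38.p14.

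The test was limma's (version 3.58.1, R 4.3.3, eBayes with a trend) on log2(TPM + 1). It took in genes that reached 1 TPM in 3 or more libraries, with 1 mean for each of 8 groups and Benjamini-Hochberg adjustment over the 16062 genes tested. This scale understates changes of low genes. Standard errors are limma's. The script was checked on simulated data.

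Genes named are BOP1, the 12 largest rises and falls (called, no overlap, at least 5 TPM in the higher group, adjusted p under 0.05 in libraries 1 and 2, which for falls was relaxed to no overlap there because fewer than 12 passed), up to 4 called members of each list, 2 of the highest members where none was called, and 20 fixed genes. Members and lists were chosen with earlier results of these data known, and 4 lists were added after the values were seen. The counts of these 4 lists cannot be read as an excess over all genes. Across all genes tested, deviations of same-numbered siBOP1 mock libraries were uncorrelated between the times, and numbers were not used as a block in the main fit. That correlation cannot exclude effects of the number on some genes or in the other groups. Some genes did shift with the number: the sum of metallothionein and zinc genes was lowest in number 4 in all 8 groups. Alternatives covered the pseudocount (0.1), filters, scaling, the trend, the samples fitted, the block and each library left out. Some genes that the rule names are not reported here.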

Additional observations from a re-analysis of the deposited data

How the results depend on the processing

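A correlation over all genes tested showed no pairing by number of the siBOP1 mock samples of 12 h and 8 h. It cannot exclude effects of the number on some genes or in the other groups. The correlation of deviations from the group means was -0.0037, 0.0051 and 0.0099 for same-numbered libraries. Some genes shifted with the number all the same. Summed metallothionein and zinc genes were at 1573, 1372 and 871 TPM at 12 h for numbers 1, 2 and 4. At 8 h they were at 1457, 1470 and 995 TPM. With the number as a block in libraries 1 and 2, 140 genes were higher and 148 lower, and 14 heat shock genes were lower. With the number as a block over all 24 libraries, 86 were higher and 56 lower, all 37 called genes among them. In that fit 1 gene passed the IFN interaction (higher). Counts without the block but in other settings were, beside 22 higher and 15 lower: 89 and 109 in numbers 1 and 2 alone, 29 lower with median-of-ratios rescaling, 23 lower with quantile normalization, and 0 and 2 with only the groups compared. Leaving out 1 library gave 4 to 9 higher and 2 to 6 lower. Heat shock genes lower, 4 in all, numbered 2 with no filter beyond a value above 0, 7 with median-of-ratios rescaling, 1 without the trend, 13 in numbers 1 and 2, 2 with only the groups compared and 0 to 1 with 1 library left out. Interaction calls, 0 in all, were 1 higher and 1 lower between siRNAs and 1 lower between treatments with no filter, 1 higher between treatments without the trend, 1 higher between siRNAs and 1 lower between treatments in numbers 1 and 2, and 1 lower between treatments with the block there. The cause of these differences was not tested. No named gene that was called changed its sign under any alternative. In the fits on fewer libraries such a change was not possible, since the 12 h and 8 h values of these genes do not overlap. Genes named but not called changed sign as follows, in log2 change. In numbers 1 and 2 alone, with or without the replicate block, AKR1C2 (0.021), ARRDC3 (-0.31), CCND3 (0.026), CKS2 (0.078), COL1A1 (-0.22), CXCL1 (-0.039), DDIT4 (-0.30), FADS2 (0.11), FDFT1 (0.16), FDPS (0.011), FTH1 (-0.074), IFIT1 (0.11), MAP1LC3B (-0.10), NR1D1 (-0.12), PDK4 (-0.080), PER1 (-0.034), SLC3A2 (-0.095), SLC7A5 (-0.063) and ZFP36L1 (-0.041). With median-of-ratios rescaling, CDK4 (-0.0091), FTH1 (-0.033), MT-CO2 (-0.029), MT1X (-0.036) and RPL41 (-0.010). With quantile normalization, FADS2 (0.031), FDFT1 (0.035), MT-CO2 (-0.10) and TNFAIP2 (0.012). The lowest and highest values with 1 library left out spanned 0 for AKR1C2 (-0.064 to 0.0095), ARRDC3 (-0.020 to 0.89), BHLHE40 (-0.19 to 0.093), CANX (-0.090 to 0.019), CCNB1 (-0.071 to 0.29), CCND3 (-0.17 to 0.060), CD68 (-0.061 to 0.13), CDK4 (-0.090 to 0.095), COL1A1 (-0.28 to 0.38), CRIM1 (-0.087 to 0.059), DDIT4 (-0.084 to 0.48), DUSP4 (-0.098 to 0.023), FADS2 (-0.071 to 0.078), FDFT1 (-0.094 to 0.075), FDPS (-0.21 to 0.032), FTH1 (-0.056 to 0.059), FTL (-0.20 to 0.051), H2AZ1 (-0.046 to 0.20), IFIT1 (-0.15 to 0.22), MAP1LC3B (-0.00054 to 0.24), MT-CO2 (-0.057 to 0.12), MT-CO3 (-0.0085 to 0.17), MT1X (-0.24 to 0.42), MT2A (-0.25 to 0.17), NPM1 (-0.088 to 0.053), NR1D1 (-0.070 to 0.69), PER1 (-0.24 to 0.31), PER2 (-0.42 to 0.15), RPL41 (-0.0081 to 0.086), SLC3A2 (-0.23 to 0.26), TGFBI (-0.055 to 0.24), TNFAIP2 (-0.065 to 0.053) and ZFP36L1 (-0.019 to 0.22). TPM gives no depth, so what depth limits could not be worked out.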

Other observations

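Genes of protein entry into the endoplasmic reticulum and of the COPII and COPI coats, a list drawn up after the values were seen, had a median log2 change of -0.14 over all libraries and -0.17 in numbers 1 and 2. Of 42 genes tested, 0 were called over all libraries, with 8 at an unadjusted p under 0.05 in limma (9.64% of all genes were), and 12 were lower in numbers 1 and 2 alone, where 0.679% of all genes were lower. Since the values were known when the list was drawn up, these counts cannot be read as an excess. SEC24D, a cargo adaptor of the COPII coat, was at 19.6, 17.98 and 17.2 TPM at 8 h and 9.99, 9.56 and 18.5 TPM at 12 h (log2 change -0.87 and limma adjusted p = 0.00245 in numbers 1 and 2). SEC61A1, the channel subunit, was at 93.9, 81.6 and 79.2 TPM and 61.2, 61.4 and 72.9 TPM (log2 change -0.51, limma adjusted p = 0.0210 in numbers 1 and 2). The medians for numbers 1, 2 and 4 were -0.21, -0.21 and -0.043.

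Among 36 other chaperones and cofactors, also listed after the values were seen, 0 were called over all libraries (15 at an unadjusted p under 0.05 in limma, against 9.64% of all genes) and 10 were lower in numbers 1 and 2, against 0.679% of all genes. For the same reason these counts cannot be read as an excess. HSPB8, a small heat shock protein that works with BAG3, was at 27.2, 27.6 and 22.2 TPM at 8 h and 12.95, 12.9 and 14.9 TPM at 12 h (limma adjusted p = 0.0663 over all libraries and 0.000373 in numbers 1 and 2). The subunits of the chaperonin TRiC had log2 changes of -0.35 (TCP1) to -0.12 (CCT3), and of these TCP1 alone passed in numbers 1 and 2 (limma adjusted p = 0.0443).

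Of the YPEL, TEAD, DP, MAX-binding and arrestin-domain families, listed after the values were seen, 3 of 18 genes were called higher over all libraries (YPEL3, TEAD2 and TFDP2). In numbers 1 and 2, 6 were higher, and the shares of all genes were 0.137% and 0.554%. The 3 called genes are among the largest rises named above, so these counts cannot be read as an excess. MXI1, an antagonist of MYC, was at 4.98, 6.93 and 5.48 TPM at 8 h and 13.5, 11.98 and 11.3 TPM at 12 h (limma adjusted p = 0.134 over all libraries and 0.00469 in numbers 1 and 2).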
